A study of Mus musculus with 8 samples.

Results

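The genes described here are 44 interferon-stimulated genes (ISGs), the type I and type II interferon-induced genes other than those of the MHC and the chemokines, chosen by their gene symbols from a count table of 54532 mouse genes. All 44 were found once in the table, and all 44 passed the filter on low counts that left 15564 genes for testing. They were measured by bulk RNA-seq in endothelial cells (ECs) of the neonatal lung, in 4 libraries of mice kept in room air (normoxia, 21% O2) and 4 libraries of mice kept in 80% O2 (hyperoxia), a model of bronchopulmonary dysplasia. All mice were wild-type C57BL/6J, the exposure ran from the day of birth to postnatal day 14, and the lungs were taken on day 14. Per the study's methods the dams were exchanged between the chambers to limit oxygen toxicity, leukocytes were removed with CD45-coated beads and the ECs were then bound with CD31-coated beads. The labels do not say how many mice each library came from.

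Interferons are secreted proteins of the immune response. Many cell types make type I interferons after their nucleic acid sensors detect viral or misplaced DNA or RNA, whereas type II interferon comes mainly from T and NK cells. Type I interferons signal through IFNAR1 and IFNAR2, the kinases JAK1 and TYK2 and a complex that holds STAT2 and IRF9, and act on genes with the interferon-stimulated response element (ISRE), whereas type II interferon (IFN-γ) signals through IFNGR1 and IFNGR2 and acts on genes with the gamma-activated site (GAS). The genes they switch on encode sensors, transcription factors, antiviral effectors, large GTPases that attack the membranes of intracellular pathogens, and inhibitors that end the response. ECs express both receptors and respond to both types of interferon. Many of these genes answer to both types, so each was put in the class it is best known for, which gave 34 type I and 10 type II genes.

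The libraries held 16098086 to 18300730 counts assigned to genes, and expression is given below as CPM, counts scaled to a common library size and composition, or as the deposited FPKM where genes are compared with each other. The EC identity of the isolates held in every library. Pecam1 ranged from 2683 to 3068 CPM and Cdh5 from 3874 to 4355 CPM, and the summed CPM of 16 pan-endothelial markers from 20170 to 21210, with the groups overlapping. Leukocyte RNA was low but present: Ptprc, which encodes CD45, ranged from 25.0 to 60.0 CPM. Markers of type II alveolar cells summed to 372 to 479 CPM in normoxia and 919 to 2574 CPM in hyperoxia, and the sums of type I alveolar cell markers (88.7 to 115 against 198.5 to 552 CPM), fibroblast markers (467 to 723 against 724 to 1441 CPM) and mural markers (62.3 to 125 against 135.5 to 271 CPM) were also higher in every hyperoxia library. The mitochondrial share of counts was 0.864 to 1.05% in normoxia and 1.21 to 1.43% in hyperoxia. The part of these differences in the results below was not tested. Xist and Y-linked genes were both well counted in 5 libraries, whereas normoxia 2 and hyperoxia 4 had at most 5 Xist counts and hyperoxia 3 had 7 Y-linked counts. P-values below measure only the spread between these libraries, which the labels do not tie to separate animals, and in bulk samples fewer cells of a type and less RNA per cell cannot be told apart.

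Few ISGs separated normoxia from hyperoxia. At an adjusted p under 0.05 in edgeR's quasi-likelihood test, 2 of the 44 rose in hyperoxia (Isg20 and Bst2) and 1 fell (Ifitm2), together 3 of 44, while 35.6% of all tested genes passed in either direction, 18.5% higher and 17.1% lower. None of the 44 passed with a log2 fold change of 1 or more in size, against 5.62% of all tested genes higher and 1.36% lower by that much. With DESeq2 the count was also 0, and at an unadjusted p under 0.05 in edgeR 5 of the 44 were higher by that much, against 6% of all tested genes. Only Ifitm2 had groups that did not overlap in CPM, against 35.4% of all tested genes. At an unadjusted p under 0.05, 10 of the 44 passed, against 45.2% of all tested genes. The log2 fold changes nevertheless leaned upwards, 41 above 0 and 3 below, with a median of 0.54 beside -0.004 for all tested genes, and 9 of them exceeded 1 without passing, from Mx1 (1.17, SE 0.48, adjusted p = 0.0808) to Ifit3 (1.52, SE 0.56, adjusted p = 0.0562). The count of members that rose changed with single libraries. Without hyperoxia 4, 22 members rose and 9 did so by a log2 fold change of 1 or more. Of all genes then tested, 29.6% passed in either direction, and the share that rose is not given here. Without hyperoxia 1, none rose and the median log2 fold change was 0.11. The count was also 0 without normoxia 1, without normoxia 2 and without normoxia 3.

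**Figure D1:**
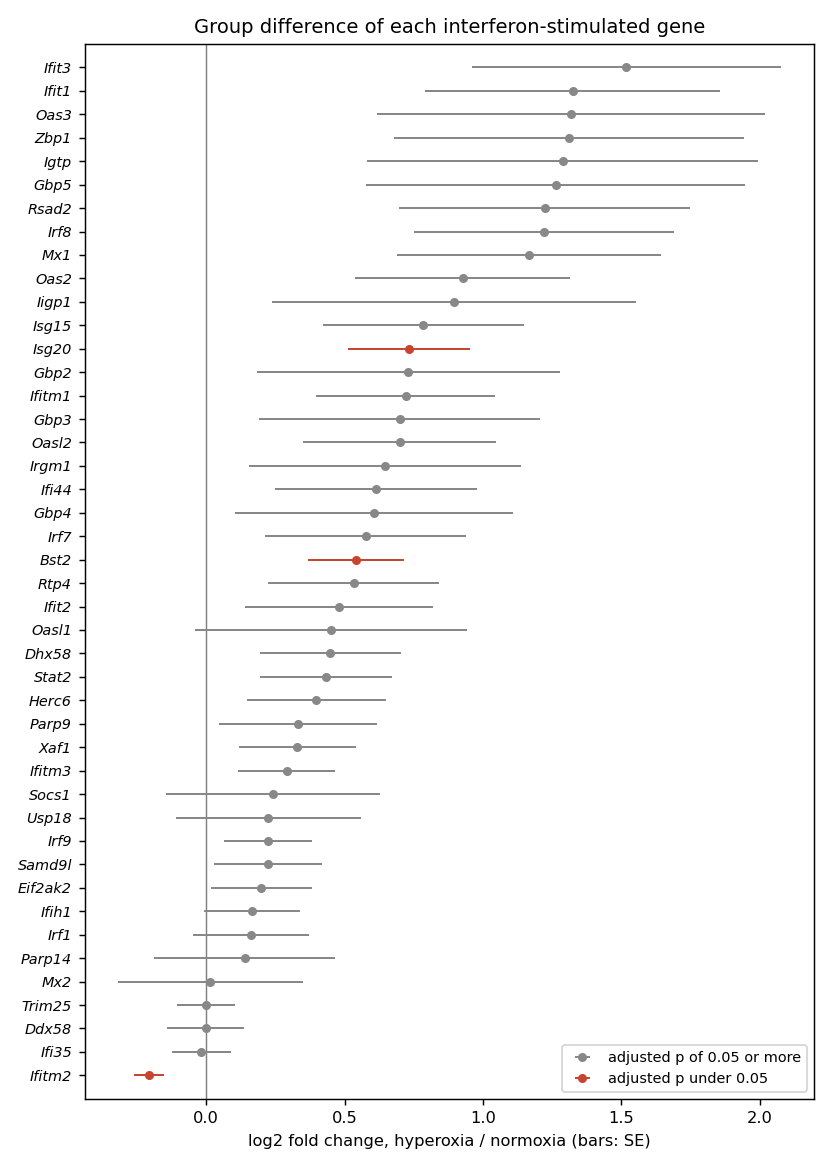
Log2 fold change of hyperoxia over normoxia (horizontal axis) for each of the 44 interferon-stimulated genes (vertical axis, in order of fold change), with bars of 1 standard error and genes past the adjusted p threshold in red. 41 of 44 points lie above 0, but the bars grow with the fold change and only Isg20, Bst2 and Ifitm2 are red.

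Isg20, an exonuclease that degrades viral RNA, measured 7.29, 6.20, 6.83 and 10.3 CPM in the normoxia libraries 1 to 4 and 14.4, 11.3, 16.8 and 8.49 CPM in the hyperoxia libraries 1 to 4. Hyperoxia 1, 2 and 3 were above every normoxia library and hyperoxia 4 lay inside the normoxia range. The log2 fold change was 0.73 (SE 0.22, adjusted p = 0.0239).

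Bst2 encodes tetherin, which holds budding virions at the cell surface. It measured 196, 180.4, 208 and 243 CPM in normoxia and 311, 267, 415 and 210.5 CPM in hyperoxia. The same 3 hyperoxia libraries were above all normoxia libraries and hyperoxia 4 was again inside their range. The log2 fold change was 0.54 (SE 0.17, adjusted p = 0.0328), and the adjusted p was 0.0576 with DESeq2. Isg20 and Bst2 each missed the threshold in 5 of the 8 fits that left out a library.

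Ifitm2 encodes a membrane protein that blocks the entry of viruses by fusion. It measured 144, 127, 149 and 141 CPM in normoxia and 115, 122, 125 and 124 CPM in hyperoxia. All 4 hyperoxia libraries were below all 4 normoxia libraries, and the spread within each group was small. It fell by 0.21 on the log2 scale (SE 0.055, adjusted p = 0.0138) and passed in every alternative fit. The gene shares 40.9% of its exon bases on the same strand with Gm45717, which had 2 counts in all, so the deposited counts of Ifitm2 depend on how reads in the shared stretch were assigned.

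The ISGs varied widely among the hyperoxia libraries and much less among the normoxia libraries. The ratio of the highest to the lowest library had a median of 1.51 over the members in normoxia and of 3.91 in hyperoxia. Over the 10840 tested genes with a mean of at least 5 CPM these medians were 1.18 and 1.15. The ratio was larger in hyperoxia for 42 of 44 members (95.5%), against 38.1% of those genes. It exceeded 2 in hyperoxia for 35 members (79.5%) beside 3.34% of those genes. In normoxia it exceeded 2 for 9 of the 44 members, beside 324 of those 10840 genes, so the members also varied more than other genes in normoxia. In 35 members the hyperoxia libraries ran beyond the normoxia libraries at both ends, against 7.99% of all tested genes. The median biological coefficient of variation in the fit was 0.33 for the members and 0.11 for all tested genes.

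**Figure D2:**
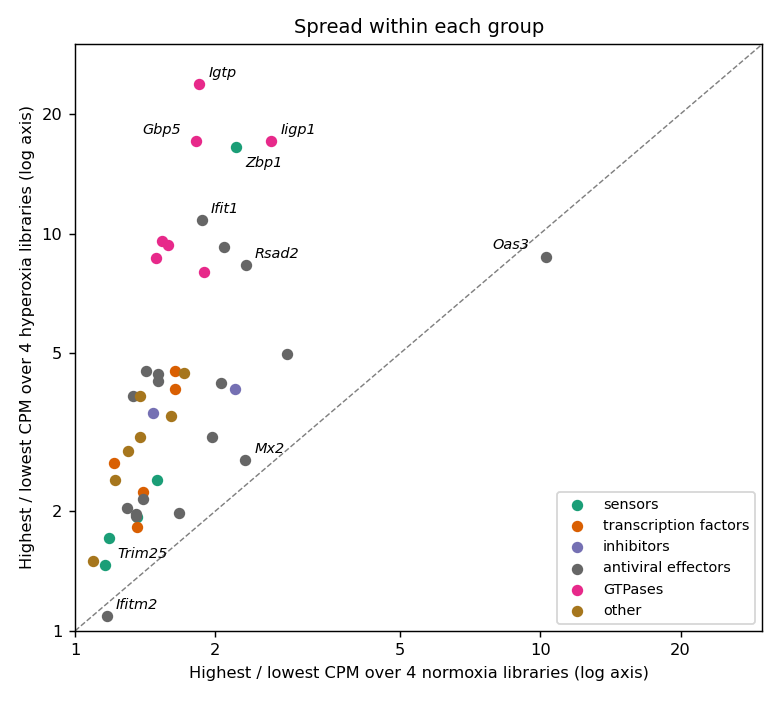
Ratio of the highest to the lowest CPM among the 4 hyperoxia libraries (vertical log axis) against the same ratio among the 4 normoxia libraries (horizontal log axis), 1 point for each of the 44 genes, coloured by role, with a dashed line of equal ratios. All points but Oas3 and Ifitm2 lie above the line, and the 7 GTPases sit between 8.01 and 23.8 in hyperoxia.

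The members moved together across the hyperoxia libraries. In 34 of the 44, the libraries stood in the order 1, 3, 2, 4 from high to low, an order that 5.27% of all tested genes had, and in 7 more in the order 3, 1, 2, 4, which 4.34% had. Hyperoxia 1 was the highest of all 8 libraries in 36 members, beside 13.6% of all tested genes, and was above every normoxia library in 42, against 32.8%. Hyperoxia 3 was above every normoxia library in 34 members, against 30.2% of all tested genes, and hyperoxia 2 in 6, against 31%. Hyperoxia 4 was the lowest of the 8 libraries in 36 members, against 13.6% of all tested genes, and was below every normoxia library in 37, against 32.6%. The 3 members in other orders were Ifitm1, Ifitm2 and Oasl1. The normoxia libraries had an order too, at a smaller scale. Normoxia 4 was the highest of the 4 in 36 members, against 21.6% of all tested genes. Normoxia 1 was the lowest in 28, against 23.5%.

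**Figure D3:**
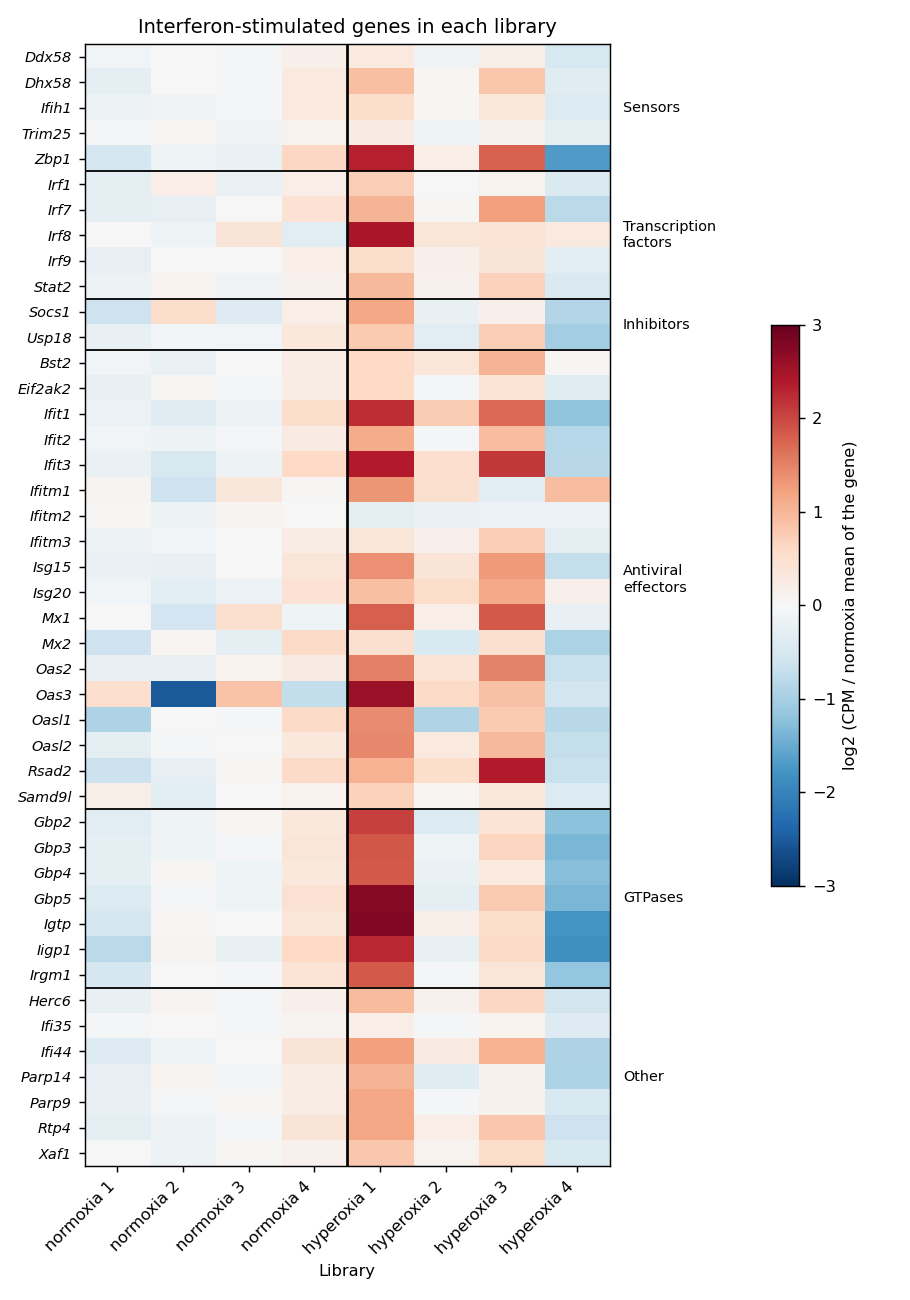
Log2 ratio of the CPM in each library (columns) to the gene's mean over the 4 normoxia libraries, for the 44 genes (rows, grouped by role), with red above and blue below that mean. The columns of hyperoxia 1 and hyperoxia 3 are red for most genes and that of hyperoxia 4 is blue, with medians of 1.13, 0.64 and -0.65, while hyperoxia 2 is near white at 0.06.

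Markers of other cells did not all follow this order. Neutrophil markers, of which S100a9 and S100a8 were the most abundant, summed to 123 CPM in hyperoxia 1 and to 27.7 to 32.8 CPM in the other hyperoxia libraries, beside 14.0 to 56.2 CPM in normoxia. All 9 tested neutrophil markers were highest of their group in hyperoxia 1, and in 1 of the 9 the order was 1, 3, 2, 4. Pan-leukocyte markers, led by Lcp1 and Coro1a, summed to 506 CPM in hyperoxia 1 and to 341, 362 and 372 CPM in hyperoxia 3, 2 and 4, and reached 570 CPM in normoxia 3. Macrophage and monocyte markers, led by Lyz2 and Cd68, summed to 585, 411, 295.1 and 507 CPM in hyperoxia 1 to 4. Type II alveolar cell markers, led by Sftpc and Sftpb, were lowest in hyperoxia 3. None of the pan-endothelial, macrophage, type II alveolar or fibroblast markers tested had the order 1, 3, 2, 4. Among all tested genes 5.27% had it, so lists this short could hold none at that share. Of 10 pan-leukocyte markers 1 had this order, and hyperoxia 1 was the highest hyperoxia library in 10. Of 13 tested lymphocyte markers 1 had it, with hyperoxia 1 the highest hyperoxia library in 10 and hyperoxia 4 the lowest in 7. Among all tested genes hyperoxia 1 was the highest hyperoxia library in 26.9% and hyperoxia 4 the lowest in 23.4%. Lymphocyte markers summed to 132, 91.1, 82.4 and 97.2 CPM in hyperoxia 1 to 4 and to 63.0 to 149.8 CPM in normoxia. The Y-linked counts were 7 in hyperoxia 3, 2197 in hyperoxia 1, 2413 in hyperoxia 2 and 4118 in hyperoxia 4, the reverse of the order 3, 1, 2, 4 that 7 members had. In normoxia they were lowest in normoxia 4, at 1553, which was the highest normoxia library in 36 members. They were highest in normoxia 2, at 4201, whereas normoxia 1, at 2252, was the lowest normoxia library in 28 members. The part of the markers and of the Y-linked counts in the spread was not tested. With the Y-linked share as a covariate the same 3 members passed, in the same directions. The median log2 fold change of the members was then 0.36, against 0.54 without it.

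The sequence upstream of these genes was read because they moved together and because both interferon pathways act through short DNA motifs. RefSeq entries of 250 bases before to 50 bases after the start of transcription (GRCm38.p6) existed for 33 of the 44 members. Both strands were searched for an ISRE core, GAAANNGAAA, and a GAS core, TTCNNNGAA. The ISRE core was in 18 of 33 members (54.5%) and in 3.99% of the 27025 genes with an entry. The GAS core was in 10 of 33 (30.3%) and in 9.55% of genes. By class, the ISRE core was in 12 of 25 type I and 6 of 8 type II genes, and the GAS core in 6 of 25 and 4 of 8. The match is a description of the letters only and says nothing of binding in these cells.

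The following stretches are shown for some of the members whose values are given by library. Each holds a core before the start of transcription. Ifitm2, the member that fell, also holds an ISRE core, which starts at -46 relative to the start of transcription and is not shown. Cores of Gbp2 (ISRE at -59) and Gbp5 (ISRE at -165, GAS at -245 and -52) are not shown either. Those of Ifitm3 (ISRE at 2 and 19, GAS at 13) lie after the start of transcription and are also not shown. All stretches shown are on the strand of the gene, 5′ to 3′, with the motif in capitals. They all lie outside the gene as the deposited table bounds it. The ISRE stretches are at chr4:156200851-156200920 (minus strand) for Isg15, chr19:34640755-34640824 (plus) for Ifit1, chr19:34583377-34583446 (plus) for Ifit3, chr12:26456533-26456602 (minus) for Rsad2, chr8:71537563-71537632 (minus) for Bst2 and chr11:58199492-58199555 (plus) for Igtp. In Isg15 3 ISRE cores form a row in which each overlaps the next. In Bst2 2 cores overlap and the first of them also overlaps a GAS core, and Ifit1 holds 2 separate cores. In Ifit1, Ifit3 and Rsad2 the cores are on the other strand and so read as their reverse complement.
Isg15: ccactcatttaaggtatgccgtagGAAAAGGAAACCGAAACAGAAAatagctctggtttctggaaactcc
Ifit1: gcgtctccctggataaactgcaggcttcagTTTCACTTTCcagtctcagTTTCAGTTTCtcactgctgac
Ifit3: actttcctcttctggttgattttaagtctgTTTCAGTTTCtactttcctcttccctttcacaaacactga
Rsad2: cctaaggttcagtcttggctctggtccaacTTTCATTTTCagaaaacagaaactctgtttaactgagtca
Bst2: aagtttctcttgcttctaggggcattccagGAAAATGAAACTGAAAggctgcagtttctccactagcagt
Igtp: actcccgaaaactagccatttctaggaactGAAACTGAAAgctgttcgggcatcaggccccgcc

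The GAS stretches are at chr11:58199481-58199549 (plus) for Igtp, where the GAS and the ISRE core lie side by side, chr7:78913321-78913389 (plus) for Isg20, chr11:53769894-53769962 (plus) for Irf1 and chr8:120736157-120736225 (plus) for Irf8, which holds 2 GAS cores. They are shown because Igtp, Irf1 and Irf8 are type II genes and Isg20 is a type I gene that rose.
Igtp: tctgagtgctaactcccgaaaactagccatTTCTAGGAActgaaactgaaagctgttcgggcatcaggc
Isg20: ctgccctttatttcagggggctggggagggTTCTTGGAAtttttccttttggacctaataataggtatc
Irf1: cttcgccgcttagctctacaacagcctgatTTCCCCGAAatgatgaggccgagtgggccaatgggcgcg
Irf8: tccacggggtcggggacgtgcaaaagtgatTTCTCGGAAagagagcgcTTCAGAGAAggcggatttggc

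The levels of the genes differed widely. By FPKM, which corrects for gene length, Ifitm3 was the highest of the 44 with 499 ± 57.9 (SD, n = 4) in normoxia and 612 ± 180.1 (SD, n = 4) in hyperoxia, followed by Bst2 with 227 ± 29.6 and 332 ± 96.0 and Ifitm2 with 212 ± 15.0 and 184 ± 7.25 FPKM. Bst2 and Ifitm2 did not differ beyond their spread in normoxia. Irf1 followed with 91.9 ± 16.03 FPKM in normoxia, and the GTPases Iigp1, Gbp2, Gbp4 and Igtp with 53.6 ± 21.4, 47.7 ± 8.96, 46.7 ± 8.26 and 43.98 ± 10.6 FPKM, which did not differ beyond their spread. The lowest were Mx1 and Oas3 with 0.22 ± 0.067 and 0.091 ± 0.068 FPKM in normoxia. Oas3 had 2 to 68 counts per library, so its ratios carry large counting error.

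Members shown by library from here on, other than Ifitm3, were chosen after their values were seen. Over the 18 antiviral effectors the median of the log2 fold changes was 0.71. Hyperoxia 1 and 3 stood together above the rest in this group, with medians of 1.21 and 0.95 on the log2 scale relative to the normoxia mean, against 0.33 in hyperoxia 2 and -0.60 in hyperoxia 4. Isg15, a ubiquitin-like protein that is attached to other proteins, measured 13.5, 13.1, 15.2 and 19.7 CPM in normoxia and 39.7, 20.1, 37.0 and 9.32 CPM in hyperoxia. Hyperoxia 1 and 3 were about alike, hyperoxia 2 was just above the highest normoxia library and hyperoxia 4 was below them all. Its log2 fold change was 0.78 (SE 0.36, adjusted p = 0.117).

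The IFIT proteins bind foreign RNA, and Ifit1, Ifit2 and Ifit3 lie in 1 cluster on chromosome 19, between positions 34550694 and 34650009. Ifit3 measured 10.4, 8.59, 10.7 and 17.95 CPM in normoxia and 61.4, 16.8, 52.0 and 6.66 CPM in hyperoxia. Ifit1 measured 6.49, 5.63, 6.55 and 10.6 CPM in normoxia and 34.1, 12.3, 23.8 and 3.16 CPM in hyperoxia. Both had hyperoxia 1 and 3 far above normoxia and hyperoxia 4 as the lowest of the 8 libraries, and neither passed (Ifit1 log2 fold change 1.32, SE 0.53, adjusted p = 0.0771). Ifit2 had a smaller range, 7.10 to 27.7 CPM in hyperoxia and 11.5 to 15.3 CPM in normoxia.

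Rsad2 encodes viperin, an enzyme that makes a chain-terminating nucleotide. It measured 4.16, 5.46, 6.71 and 9.72 CPM in normoxia and 13.4, 9.40, 34.2 and 4.11 CPM in hyperoxia. Here hyperoxia 3 was the highest, well above hyperoxia 1, and hyperoxia 4 was close to the lowest normoxia library (log2 fold change 1.22, SE 0.53, adjusted p = 0.0953). Ifitm3, which blocks virus entry like Ifitm2, measured 307, 322, 339 and 397 CPM in normoxia and 438, 378, 572 and 280.1 CPM in hyperoxia. Its order was that of Rsad2 rather than that of its neighbour Ifitm2, and the group difference was 0.29 on the log2 scale (SE 0.18, adjusted p = 0.226). Ifitm1, Ifitm2 and Ifitm3 lie on chromosome 7 between 140954837 and 141010770, and Ifitm1 had another pattern, with 6.34, 3.57, 2.06 and 4.83 CPM in hyperoxia 1 to 4 and 1.65 to 3.25 CPM in normoxia.

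The OAS proteins make the second messenger that activates RNase L. Oas2 measured 5.27, 5.24, 6.60 and 7.46 CPM in normoxia and 17.5, 8.21, 17.2 and 3.88 CPM in hyperoxia, with hyperoxia 1 and 3 nearly equal (log2 fold change 0.93, SE 0.39, adjusted p = 0.0884). Oasl2, the most counted of the 4 members of this family, ranged from 50.5 to 224 CPM in hyperoxia and from 68.3 to 103 CPM in normoxia. Mx1, a dynamin-like GTPase, had only 10 to 53 counts per library, with the highest 2 in hyperoxia 3 and 1. Mx2, which the deposited annotation calls a polymorphic pseudogene, had a log2 fold change of 0.01 (SE 0.33). Eif2ak2, which encodes the RNA-dependent kinase PKR, and Samd9l varied less, with ratios of 1.94 and 2.15 between the highest and lowest hyperoxia library.

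**Figure D4:**
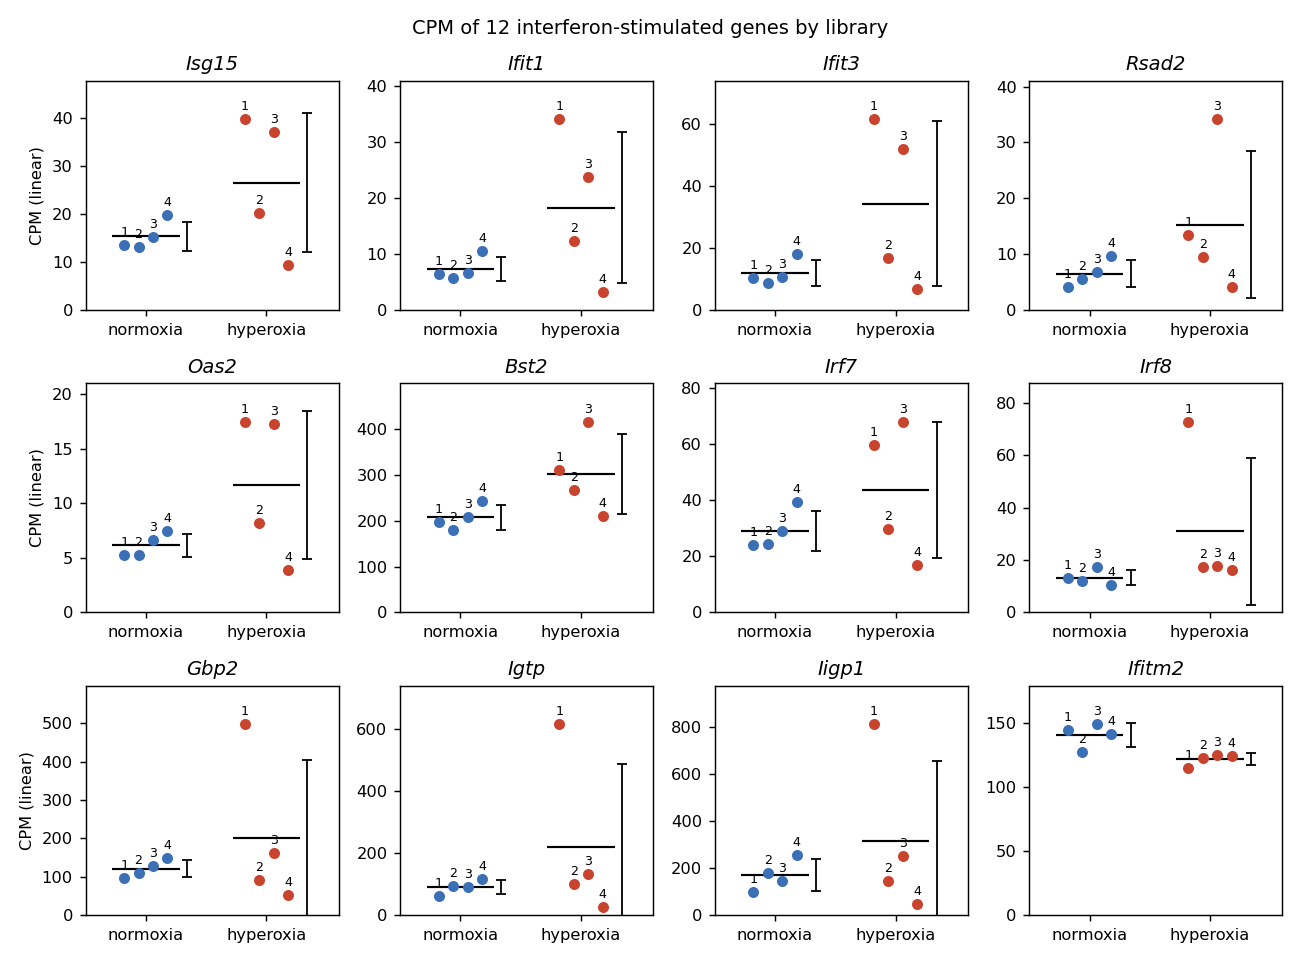
CPM (linear vertical axes from 0) of 12 interferon-stimulated genes in the 4 normoxia (blue) and 4 hyperoxia (red) libraries, numbered, with the group mean as a line and the standard deviation as a bar, which is cut off at 0 where it would go below. In 11 of the 12 panels, all but Ifitm2, hyperoxia 1 and 3 are the top 2 hyperoxia libraries and hyperoxia 4 is the lowest.

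Among the 5 transcription factors, Irf7, the factor that amplifies type I interferon genes, measured 23.9, 24.5, 28.9 and 39.2 CPM in normoxia and 59.5, 29.7, 67.9 and 16.8 CPM in hyperoxia. Hyperoxia 3 and 1 were highest and hyperoxia 4 lowest of the 8 libraries (log2 fold change 0.58, SE 0.36, adjusted p = 0.245). Irf8, a factor of myeloid cells that IFN-γ also induces, measured 13.1, 12.1, 17.3 and 10.6 CPM in normoxia and 72.7, 17.2, 17.6 and 16.1 CPM in hyperoxia. Hyperoxia 1 alone stood apart, and the other 3 hyperoxia libraries were at the top of the normoxia range or just above it. Its log2 fold change was 1.22 (SE 0.47, adjusted p = 0.0653) and fell to 0.36 (SE 0.15, adjusted p = 0.0977) without hyperoxia 1. Among the hyperoxia libraries the sums of neutrophil, macrophage and monocyte, pan-leukocyte and lymphocyte markers were also highest in hyperoxia 1, as given above. Dendritic cell markers summed to 243 to 256 CPM in the hyperoxia libraries. The part of these cells in the level of Irf8 was not tested.

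Irf1, a factor induced early by IFN-γ, was at 305, 426, 319 and 424 CPM in normoxia and 610.2, 368.5, 399 and 272 CPM in hyperoxia, with hyperoxia 1 above and hyperoxia 4 below every normoxia library and the other hyperoxia libraries within their range. The log2 fold change was 0.16 (SE 0.21, adjusted p = 0.587). Irf9 and Stat2, which both belong to the type I complex, had log2 fold changes of 0.22 (SE 0.16) and 0.43 (SE 0.24) and the order 1, 3, 2, 4. Irf9 shares 2.28% of its exon bases with Rnf31 and Irf7 shares 1.19% with Phrf1.

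The 5 sensors varied least as a group, with a median ratio of 1.93 between the highest and lowest hyperoxia library, and Zbp1 was the exception. Zbp1, which binds nucleic acid in the Z form and can start necroptosis, measured 4.96, 6.60, 6.27 and 11.0 CPM in normoxia and 36.6, 8.21, 24.7 and 2.22 CPM in hyperoxia, a ratio of 16.5 between hyperoxia 1 and 4. Its log2 fold change of 1.31 (SE 0.63, adjusted p = 0.133) did not pass. Ddx58, which encodes RIG-I, and Trim25, the ubiquitin ligase that activates it, had log2 fold changes of -0.002 (SE 0.14) and 0.0007 (SE 0.10). Ifih1 (MDA5) and Dhx58 (LGP2) stood at 0.17 (SE 0.17) and 0.45 (SE 0.25). The 2 inhibitors, Usp18, which blocks the type I receptor, and Socs1, which blocks the JAK kinases, were at 0.22 (SE 0.33) and 0.24 (SE 0.39), and in both hyperoxia 1 was the highest and hyperoxia 4 the lowest hyperoxia library.

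The 7 GTPases spread the furthest. Their median log2 ratio to the normoxia mean was 2.04 in hyperoxia 1, -0.19 in hyperoxia 2, 0.56 in hyperoxia 3 and -1.36 in hyperoxia 4. Igtp, which encodes IRGM3, a GTPase that protects host membranes, measured 62.4, 92.0, 88.9 and 115.5 CPM in normoxia and 617, 101, 132 and 25.96 CPM in hyperoxia. Hyperoxia 1 was 23.8 times hyperoxia 4, hyperoxia 2 lay within the normoxia range and hyperoxia 3 just above it. The fitted log2 fold change was 1.29 (SE 0.71, adjusted p = 0.183), and without hyperoxia 1 it was -0.05 (SE 0.41). Igtp shares 8.01% of its exon bases with Irgm2, which lies on the same strand and measured 258, 89.8, 101 and 26.5 CPM in hyperoxia 1 to 4.

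Iigp1 and Irgm1 belong to the same family of immunity-related GTPases. Iigp1 measured 97.0, 177.5, 143 and 256.5 CPM in normoxia and 811.8, 145.5, 251 and 47.4 CPM in hyperoxia. Irgm1 ranged from 67.3 to 127 CPM in normoxia and from 42.8 to 343 CPM in hyperoxia. The guanylate-binding proteins behaved in the same way: Gbp2 measured 97.4, 110.0, 127 and 149.6 CPM in normoxia and 498, 90.8, 162 and 51.9 CPM in hyperoxia. For Gbp5 the normoxia values were 22.8 to 41.5 CPM and the hyperoxia values 201.5, 24.8, 52.3 and 11.8 CPM. Gbp3 and Gbp4 had ratios of 9.33 and 8.67 between their highest and lowest hyperoxia library. The 7 GTPases had log2 fold changes from 0.61 to 1.29, and none passed even at an unadjusted p under 0.05. Members of the Gbp, Ifit and Oas families resemble each other in sequence, and how reads matching several of them were counted is not given in the sources used here.

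Type I and type II genes ranked the hyperoxia libraries alike by their medians, and the gap between hyperoxia 1 and hyperoxia 3 was wider in the type II genes. The type I genes had median log2 ratios to the normoxia mean of 0.99 in hyperoxia 1 and 0.77 in hyperoxia 3, whereas the type II genes had 1.95 and 0.41. Per gene, the log2 ratio of hyperoxia 1 to hyperoxia 3 had a median of 0.19 in the 34 type I genes, with 26 above 0 and a range of -1.35 (Rsad2) to 1.69 (Oas3). In the 10 type II genes its median was 1.58, with all 10 above 0 and a range of 0.61 (Irf1) to 2.22 (Igtp). This compares 2 libraries and has no test. In hyperoxia 4 the medians were -0.51 for type I and -1.25 for type II genes.

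**Figure D5:**
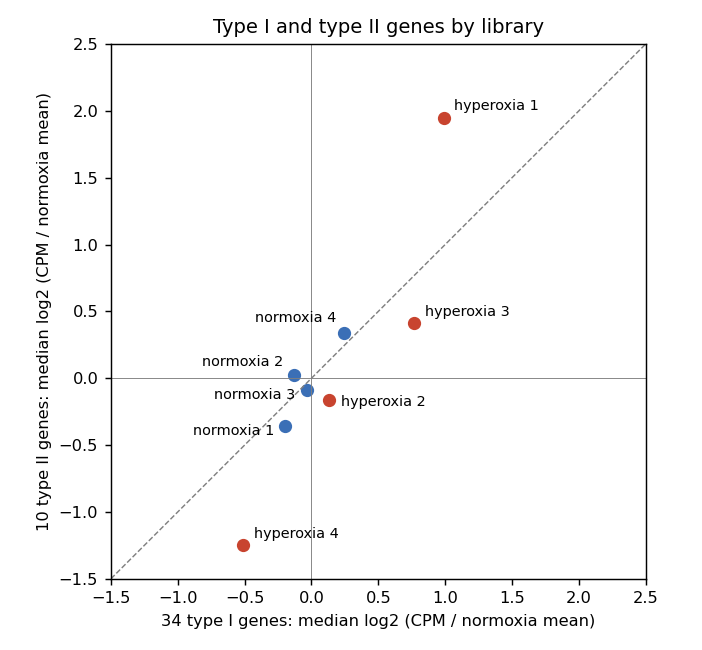
Median log2 ratio to the normoxia mean over the 10 type II genes (vertical axis) against that over the 34 type I genes (horizontal axis), 1 point a library, with a dashed line of equal values. Hyperoxia 1 lies far above the line (1.95 against 0.99) and hyperoxia 3 below it (0.41 against 0.77).

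The other 7 members had log2 fold changes from -0.02 (Ifi35) to 0.61 (Ifi44), and none passed even unadjusted. Parp9 and Parp14, ADP-ribosyltransferases that lie near each other on chromosome 16, had a high value in hyperoxia 1 alone, with 116, 48.9, 56.3 and 37.7 CPM for Parp9 and 365, 141, 198 and 93.3 CPM for Parp14 in hyperoxia 1 to 4. Parp14 ranged from 152 to 211 CPM in normoxia, so hyperoxia 2 and 4 were below and hyperoxia 3 was inside that range. Parp9 shares 9.40% of its exon bases with Dtx3l on the opposite strand, and whether counting used strand is not given in the sources used here. Rtp4, Xaf1, Ifi44 and Herc6 had the order 1, 3, 2, 4, with ratios of 3.48, 2.40, 4.46 and 2.83 between the ends.

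The other parts of the pathway varied less, with median ratios between the highest and lowest hyperoxia library of 1.11 for receptors and JAK-STAT genes, 1.26 for nucleic acid sensing and 1.14 for negative regulators. Interferon transcripts were nearly absent from the isolates: 13 of 19 interferon genes had no count in any library. The summed counts of all 19 were 2 to 10 per library, so none was tested. Leukocytes had been removed, so these counts say nothing of interferon made by other cells of the lung. The receptors and JAK-STAT genes gave 1 higher and 3 lower of 10 tested, together a share near the 35.6% of all tested genes. Ifngr1, the ligand-binding chain of the IFN-γ receptor and the most abundant of the list, measured 162, 149, 161 and 149.9 CPM in normoxia and 116, 125, 114 and 116 CPM in hyperoxia. The groups did not overlap, and it fell by 0.40 on the log2 scale (SE 0.049, adjusted p = 0.000131). Stat3 rose by 0.29 (SE 0.091, adjusted p = 0.028) and Jak2 fell by 0.23 (SE 0.071, adjusted p = 0.0263), while Jak1 differed by -0.12 (SE 0.043, adjusted p = 0.0538).

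Of 14 tested genes of nucleic acid sensing, 3 rose, a share near the 18.5% of all tested genes, and none fell. Those that rose were Tlr7, the endosomal receptor for single-stranded RNA, by 0.67 (SE 0.24, adjusted p = 0.0487), Ticam1, the adaptor of TLR3, by 0.56 (SE 0.12, adjusted p = 0.00395) and Tmem173, which encodes STING, by 0.34 (SE 0.096, adjusted p = 0.0186). The most abundant, Tbk1 and Irf3, had log2 fold changes of -0.04 (SE 0.066) and 0.08 (SE 0.071). Of 12 tested negative regulators, 3 rose and 1 fell, again near the 35.6% of all tested genes. Rnaseh2a, a subunit of the nuclease that removes RNA from DNA and also a gene of DNA replication, fell by 0.72 (SE 0.080, adjusted p = 6.29e-05), Ptpn1, a phosphatase that acts on JAK2 and TYK2, rose by 0.29 (SE 0.065, adjusted p = 0.00511) and Rnaseh2c, another subunit of that nuclease, by 0.27 (SE 0.074, adjusted p = 0.0163). Socs3, the most abundant by FPKM, had a log2 fold change of -0.02 (SE 0.079). The order 1, 3, 2, 4 was found in 4 of 10 genes of receptors and JAK-STAT and in 1 of 14 of sensing. It was found in 3 of 12 negative regulators and in 5.27% of all tested genes.

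A further list of 54 ISGs outside the 44 was read in the same way. Of 51 tested, 5 rose and 2 fell, beside 18.5% higher and 17.1% lower among all tested genes, and the median log2 fold change was 0.29. The order 1, 3, 2, 4 was found in 40 of 51 (78.4%), against 5.27% of all tested genes. Hyperoxia 4 was the lowest hyperoxia library in 49, against 23.4%. The ratio between the highest and lowest library was larger in hyperoxia in 48 of 51 (94.1%), with a median of 2.70 in hyperoxia and 1.38 in normoxia. Ifit3b, a close relative of Ifit3, had the largest rise of those that passed, with 2.20, 1.59, 2.63 and 4.47 CPM in normoxia and 16.4, 4.93, 15.97 and 1.28 CPM in hyperoxia (log2 fold change 1.82, SE 0.64, adjusted p = 0.0476). Ifi27l2a rose by 1.06 (SE 0.35, adjusted p = 0.0372) and Slfn2 by 0.91 (SE 0.32, adjusted p = 0.0441). In both of them hyperoxia 4 lay inside the normoxia range. The most abundant, Ly6e and Lgals9, had log2 fold changes of -0.12 (SE 0.078, adjusted p = 0.265) and 0.17 (SE 0.11, adjusted p = 0.247).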

How the data were processed

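The deposited counts per gene came from the authors, who per the labels and the study's methods sequenced SMARTER mRNA-Seq libraries of bead-isolated lung ECs. The submitters' processing notes name HISAT2 2.0.5, featureCounts 1.5.0-p3 and mm10, while strand and multi-mapping settings are not given in the sources used here. The labels name an RNeasy kit and the study's methods TRIzol for the RNA. The deposited FPKM were used as the authors made them, for levels between genes and as log2 in an alternative. Columns naming a library were assigned by title. The main test was edgeR 4.0.16 (R 4.3.3): TMM, filterByExpr, quasi-likelihood with the group as the only term, and Benjamini-Hochberg over 15564 genes, tested on simulated data. DESeq2 1.42.0, limma 3.58.1 (voom, log2 FPKM with pseudocounts of 1 and 0.1), other scalings and filters, a replicate block, the Y-linked share and leaving out each library were alternatives. Replicates were not duplicates by their counts. The members and lists were chosen with earlier results of these data known. By rule, values by library were given for members past the threshold and the 3 highest by FPKM, and from each pathway list the 3 largest changes past the threshold and the 2 most abundant genes were named. Coordinates are those of the deposited table, and the promoter windows those of RefSeq (GRCm38.p6). Columns of the authors' comparisons were not used. Depth was 16098086 to 18300730 counts per library, and precision was limited by the spread between 4 libraries a group.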

Additional observations from a re-analysis of the deposited data

Results flagged for a closer look

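Irf8 in hyperoxia 1 measured 72.7 CPM, far from the other 3 hyperoxia libraries, which lay between 16.1 and 17.6 CPM. The gap took up 0.975 of the range of the group. Of 88 groups of 4 libraries examined over the 44 genes, this was the only one with a library standing apart by Dixon's criterion, and chance alone would give 4.4.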

How the results depend on the processing

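The count of members higher in hyperoxia was 2 in edgeR and changed most with the libraries: it ran from 0 to 22 when 1 library was left out, and that of members higher by a log2 fold change of 1 or more from 0 to 9, with the upper ends without hyperoxia 4 (without hyperoxia 2 the counts were 4 and 2, and without hyperoxia 3 they were 2 and 1). It was 0 without hyperoxia 1 and without normoxia 1, 2 or 3. The median log2 fold change ran from 0.11 (without hyperoxia 1) to 0.73 (without hyperoxia 4). Of all genes tested, 28.5% (without hyperoxia 2) to 34.2% (without normoxia 3) passed in either direction with 1 library left out. With no filter on low counts the counts were 11 and 6, and 17.8% of 30282 genes passed in either direction. With an unadjusted p under 0.05 the counts were 9 and 5, while 45.2% of all tested genes passed in either direction. With DESeq2 1 member was higher, beside 29% of genes in either direction. With limma on log2(FPKM + 1) or log2(FPKM + 0.1) 0 members were, beside 23.8% and 24% of genes, with medians of 0.27 and 0.29. The median was 0.28 with limma-voom. The cause of these changes was not tested. With the replicate number as a replicate block 0 members were higher, while 30.8% of all tested genes passed in either direction. The median was then 0.31. The numbers did not pair the libraries: the correlations of same-numbered libraries were 0.12, 0.04, -0.12 and -0.14. Other scalings and the Y-linked share changed no call of these counts. Ifitm2 was the 1 member lower in every fit.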
